A study of Anopheles gambiae with 9 samples.

Results

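Genes of the X chromosome were examined in the pedicel of Anopheles gambiae, the antennal segment that houses the Johnston's organ, the mosquito ear. Genes with identifiers from AGAP000002 to AGAP001070, which are numbered in order along the X in the AgamP4 gene set, were taken as X-linked, and those from AGAP001100 to AGAP012400 as autosomal. A gene was included where its estimated counts, summed over its transcripts, averaged at least 1 CPM (counts scaled to a library total of 1e6) over the 9 libraries. This gave 779 of 895 X-linked genes (87%), which have 1013 transcripts, and 7685 of 9992 autosomal genes (76.9%), out of 13845 genes in all. A further 1535 genes above the minimum carry identifiers outside both ranges and were not assigned to a chromosome. Of the 116 X-linked genes under the minimum, 10 had no count in any library. AGAP000365 (0.963 CPM) was the last outside the limit and AGAP000293 (1.01 CPM) the first inside it.

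Males of Anopheles gambiae carry a single X chromosome beside a Y, and females a pair of X chromosomes. Where nothing compensates, a gene present in a single copy would be expected to give 0.5 times the transcript of a gene present in a pair, a log2 ratio of −1. Many animals offset this by dosage compensation, which adjusts transcription of the X. In the fruit fly Drosophila, the MSL complex raises transcription from the male X. In Anopheles, the protein SOA has been linked to the compensation of the male X. The gene doublesex (dsx) acts further down in sex determination and is spliced into a male form and a female form, DsxF. A comparison of XY males with XX females mixes chromosome number with sexual differentiation, whereas XX mosquitoes that lack DsxF share the chromosomes of females and take on male features of the ear.

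The tested mosquitoes were dsxF+/+ XY males and dsxF-/- XX mosquitoes, called intersex by the study, in which the female isoform is disrupted. The controls were dsxF+/+ XX females. Each group had 3 libraries, each from a pool of dissected pedicels and described by the study as a biological repeat, from adults a few days old collected at the onset of dusk. The dsxF+/+ groups were of the G3 strain and were sorted by sex as pupae, and the dsxF-/- pupae came from the mutant line and were not sorted, so that line, rearing and mutation cannot be told apart. XY over dsxF+/+ XX is denoted MvF, dsxF-/- XX over dsxF+/+ XX IvF, and XY over dsxF-/- XX MvI. Each pair of these comparisons shares a group of libraries.

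Total counts were 14708863 to 18379886 in the dsxF+/+ XY libraries and 14177255 to 17477058 in dsxF-/- XX, against 15912671 to 17188581 in dsxF+/+ XX. The 10 most abundant transcripts held 23.6% of the counts in the third dsxF+/+ XX library and 8.95% to 14.2% in each of the others. Nanchung (AGAP012241), a channel subunit of auditory neurons, was present in every library, at 215 to 243 CPM in dsxF+/+ XY and 155 to 197 in dsxF-/- XX, against 58.5 to 75.3 in dsxF+/+ XX. The groups were apart in this transcript. NompB (AGAP006324), needed for the cilia of these neurons in Drosophila, had 39.7 to 45.5 CPM in dsxF+/+ XY and 41.0 to 51.6 in dsxF-/- XX, which overlapped, against 19.5 to 26.0 in dsxF+/+ XX. Fewer cells of a type and less RNA per cell cannot be told apart in such bulk samples, and the part of cell composition in the X-linked ratios was not tested.

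X-linked transcripts were, at the median, slightly lower against autosomal transcripts in XY pedicels than in XX pedicels of either genotype. The X-linked genes had a median log2 ratio of −0.13 in MvF, where the autosomal genes had 0.02, a difference of −0.16 or 10.2% less. In MvI the X-linked median was −0.24 and the autosomal −0.10, a difference of −0.14 or 9.24% less. In IvF, where both groups have a pair of X chromosomes, the X-linked median was 0.14 and the autosomal 0.12, a difference of 0.02. Neither difference with XY came near the value of −1 that a single uncompensated copy would give. Each ratio compares group means in CPM with a pseudocount of 0.5 CPM. Scaling by TMM, a correction for library composition, moved the median of all genes by 0.02 in MvF, −0.11 in IvF and 0.13 in MvI. Such a shift enters the X-linked and autosomal medians alike and leaves their difference in place.

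Single libraries of the 3 groups overlapped in this measure, and the spread was widest in dsxF-/- XX. For each library, the CPM of every gene was set against its mean over the 9 libraries, and the autosomal median was subtracted from the X-linked median. The log2 differences were −0.05, −0.04 and −0.15 in the dsxF+/+ XY libraries, with a mean of −0.08 ± 0.06 (SD, n = 3). They were 0.08, −0.12 and 0.17 in dsxF-/- XX, with a mean of 0.04 ± 0.15 (SD, n = 3), and −0.06, 0.08 and 0.03 in dsxF+/+ XX, with a mean of 0.02 ± 0.07 (SD, n = 3). The XY libraries were all below 0, but the second dsxF-/- XX library and the first dsxF+/+ XX library lay among them, so the groups overlapped. Of the 9 pairs of an XY with a dsxF+/+ XX library, 8 had a lower X-linked than autosomal median, with differences from −0.20 to 0.03. This held for 7 of the 9 pairs in MvI, from −0.28 to 0.07, and for 3 of the 9 pairs in IvF, from −0.22 to 0.17. Libraries of dsxF+/+ XY and dsxF+/+ XX with neighbouring sample-sheet numbers deviated together, whereas those of dsxF-/- XX did not consistently join them. The 3 MvF pairs made from such neighbours had differences of −0.12, −0.08 and −0.18, all below 0. Made in the same way, the MvI pairs had −0.22, −0.20 and 0.01, and the IvF pairs 0.17, 0.07 and −0.22. With 3 libraries against 3, an exact test cannot go below p = 0.1, and no test was made on these medians.

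**Figure D1:**
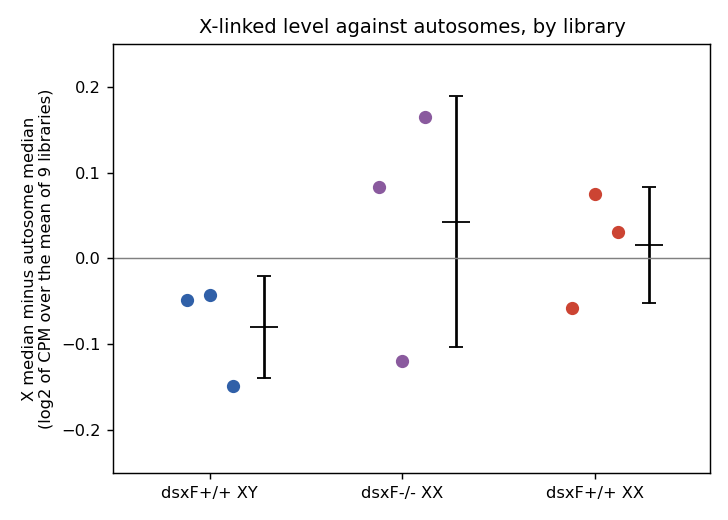
Median log2 level of X-linked genes minus that of autosomal genes (vertical axis) in each library, by group. Points are libraries, and bars give the mean and SD of each group. The 3 dsxF+/+ XY libraries lie between −0.15 and −0.04, and the lowest dsxF-/- XX library (−0.12) and the lowest dsxF+/+ XX library (−0.06) lie among them.

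The lower median came from the middle of the distribution rather than its lower end. In MvF the first quartile was −0.75 for X-linked and −0.57 for autosomal genes, whereas the 10th percentile was −1.69 for X-linked and −1.80 for autosomal genes. Ratios under −0.5, nearer to −1 than to 0, were found for 262 X-linked genes (33.6%) and for 26.8% of autosomal genes. Ratios under −1 were found for 18.1% of X-linked and 16.9% of autosomal genes. Both shares include genes abundant in the first dsxF+/+ XX library alone, described below, 7 X-linked and 16 autosomal. The shares were not computed without them. The upper quartile was 0.45 for X-linked and 0.47 for autosomal genes. In MvI, 30.2% of X-linked and 19.2% of autosomal genes had ratios under −0.5, whereas 8.86% of X-linked and 9.75% of autosomal genes were under −1. In IvF, 17.3% of X-linked and 18.5% of autosomal genes were under −0.5. Within 0.25 of −1, counted from the autosomal median, were 81 X-linked genes (10.4%) and 6.99% of autosomal genes in MvF, 63 (8.09%) and 5.23% in MvI, and 42 (5.39%) and 7.68% in IvF.

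**Figure D2:**
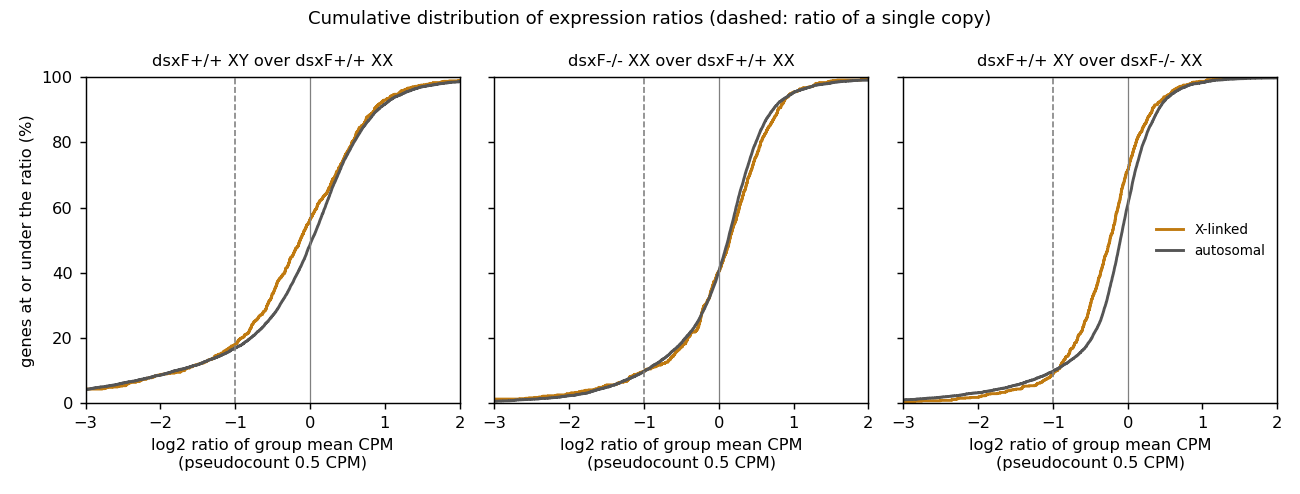
Share of genes (vertical axis, %) at or under each log2 ratio of group mean CPM (horizontal axis) for the 779 X-linked and 7685 autosomal genes in the 3 comparisons. The dashed line marks the log2 ratio of −1 of a single uncompensated copy. The X-linked curve lies above the autosomal one between −1 and 0 in both comparisons with XY, where 33.6% against 26.8% (MvF) and 30.2% against 19.2% (MvI) of genes are under −0.5.

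Genes that were lower in XY than in both XX genotypes, by over 0.5 on the log2 scale, while the XX genotypes lay within 0.5 of each other, numbered 98 of the 779 X-linked genes (12.6%) and 426 of the autosomal genes (5.54%). The opposite pattern, higher in XY than in both, was held by 10 X-linked (1.28%) and 208 autosomal genes (2.71%). Ratios within 0.5 in all 3 comparisons were seen for 30.2% of X-linked and 42.1% of autosomal genes. These shares count ratios of group means and take no account of the spread between libraries. With each library left out in turn, the X-linked share lower in XY ranged from 9.11% (without the second dsxF+/+ XY library) to 17.8% (without the first), and the autosomal share from 4.63% to 7.47% without the same libraries. The X-linked share higher in XY was 2.82% without the first dsxF-/- XX library, and the autosomal share higher in XY was 1.61% without the second and 4.50% without the first dsxF+/+ XY library.

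The X-linked genes were divided in identifier order into 10 runs of 77 or 78 genes, and the autosomal genes into 12 sections of 262 to 739 genes. Medians of the smaller X-linked runs are expected to scatter more than those of the sections, and whether the runs differ from each other was not tested. In MvI the medians of the runs lay between −0.34 and −0.15, and all 10 were below the lowest autosomal section (−0.13), whereas 6 were so without the third dsxF-/- XX library. In MvF the runs lay between −0.34 and 0.04 and the autosomal sections between −0.06 and 0.10. The lowest were runs 7 (AGAP000648 to AGAP000751, −0.34), 9 (AGAP000857 to AGAP000966, −0.33) and 10 (AGAP000967 to AGAP001070, −0.27), and the highest was run 6 (AGAP000540 to AGAP000646, 0.04). Runs 1 to 6 together, a division made after these values were seen, differed from the autosomal median by −0.08 in MvF and −0.09 in MvI, and runs 7 to 10 by −0.31 and −0.18. Without the second dsxF+/+ XX library the value for runs 1 to 6 in MvF was 0.00124, and without the third dsxF-/- XX library it was −0.02 in MvI. The second dsxF-/- XX library moved it to −0.18 in MvI when left out. Over all libraries left out, runs 7 to 10 ranged from −0.32 to −0.28 in MvF and from −0.22 to −0.17 in MvI. In IvF the 10 runs ranged from −0.04 in run 9 to 0.27 in run 6.

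**Figure D3:**
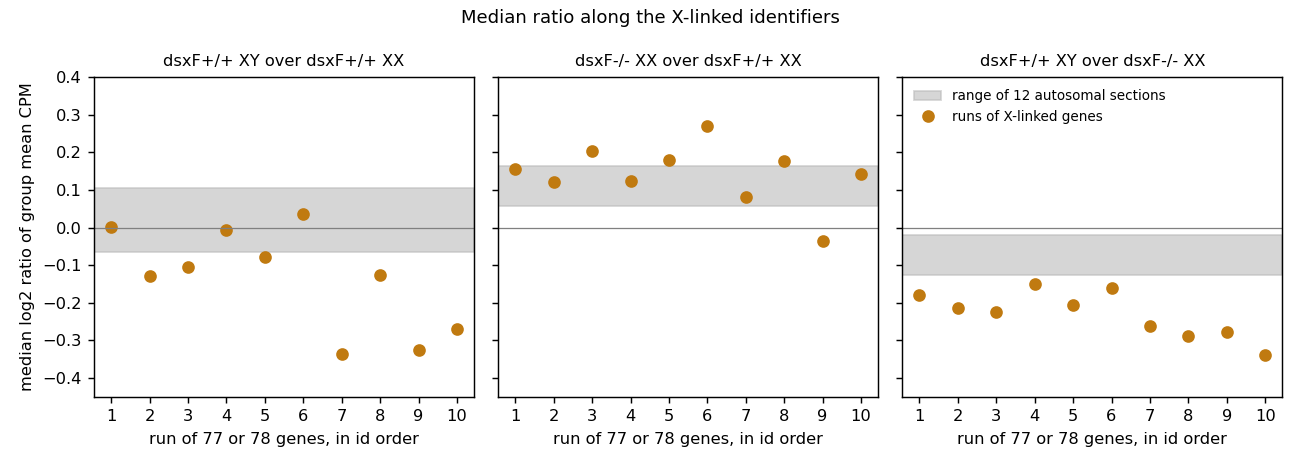
Median log2 ratio of group mean CPM (vertical axis) in 10 runs of X-linked genes in identifier order (horizontal axis) for the 3 comparisons. The grey band spans the medians of 12 autosomal sections of 262 to 739 genes, each larger than a run. In MvI all 10 runs lie below the band, from −0.34 to −0.15, and in MvF runs 7, 9 and 10 are the lowest.

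The X-linked genes were below autosomal genes of similar abundance at every level in both comparisons with XY. In MvF the difference of the medians was −0.17 for the 85 genes of 1 to 5 CPM, −0.43 for the 131 genes of 5 to 20 CPM, −0.14 for the 368 genes of 20 to 100 CPM and −0.13 for the 195 genes of 100 CPM and over. It stood out in the second of these ranges, where X-linked genes had a median of −0.53 and autosomal genes of −0.10, and it ranged there from −0.48 to −0.32 with each library left out. The same range gave the lowest differences in MvI (−0.23) and IvF (−0.16), where the IvF value ran from −0.24 without the third to −0.08 without the second dsxF-/- XX library. In MvI the others were −0.12, −0.10 and −0.22, in order of abundance. Abundance itself moved with the ratio, since autosomal medians in MvF ran from −0.38 at 1 to 5 CPM to 0.22 at 100 CPM and over. X-linked genes had a median level of 42.5 CPM and autosomal genes of 34.2 CPM.

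**Figure D4:**
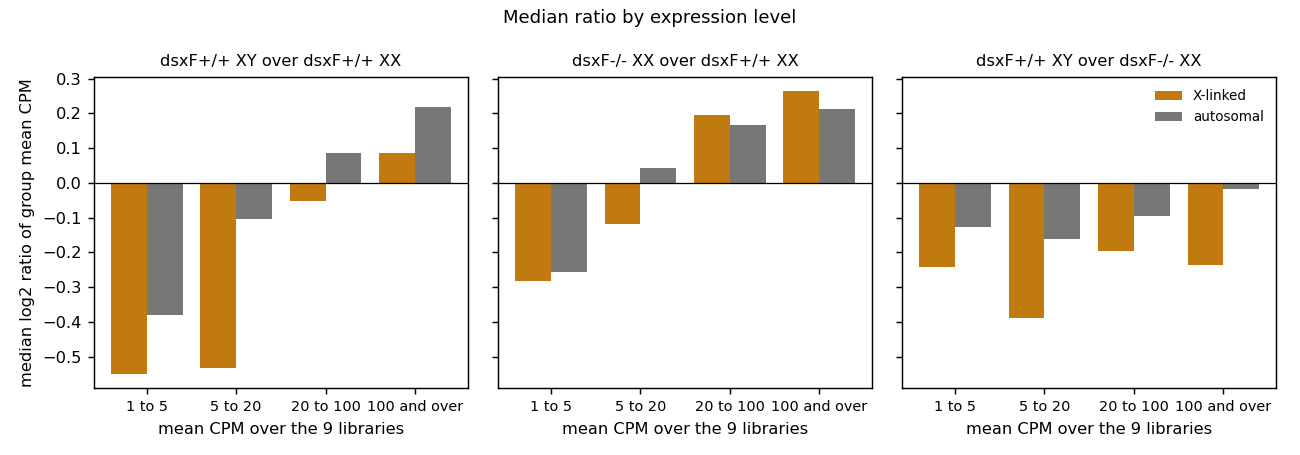
Median log2 ratio of group mean CPM (vertical axis) for X-linked and autosomal genes in 4 ranges of mean CPM (horizontal axis), in the 3 comparisons. Bars start at 0. In MvF the gap is widest at 5 to 20 CPM, at −0.53 for X-linked and −0.10 for autosomal genes.

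Gene by gene, the shares of X-linked genes called lower or higher lay within a few percentage points of those of all genes. Calls were made with edgeR's quasi-likelihood test where the p adjusted by Benjamini-Hochberg was under 0.05, and 772 of the 779 genes could be tested. In MvF 171 X-linked genes (22.2%) fell, where 19.5% of all 10479 genes tested fell, and 92 (11.9%) rose, where 13.1% of all did. In IvF 63 (8.16%) fell and 44 (5.7%) rose, against 9.4% and 5.05% of all genes. In MvI 61 (7.9%) fell and 10 (1.3%) rose, against 7.66% and 1.57% of all genes. Of the 171 X-linked genes that fell in MvF, 81 (47.4%) had a log2 fold change between −1.5 and −0.5 and 69 (40.4%) were below −2, with a median of −1.57. The autosomal genes that fell had 39.2% and 45.9% in these ranges, with a median of −1.86. In MvI, 45.9% of the X-linked and 34.3% of the autosomal genes that fell were between −1.5 and −0.5. Genes called lower in both MvF and MvI and not called in IvF numbered 28 X-linked (3.63%) and 262 autosomal (3.42%), whereas genes called lower in MvF alone numbered 86 X-linked (11.1%) and 528 autosomal (6.89%). Genes called higher in MvF alone were 6.61% of X-linked and 8.57% of autosomal genes, and 63.2% of X-linked and 64.6% of autosomal genes were called in no comparison. The count that rose in MvF depended on single libraries: it was 167 without the second dsxF+/+ XX library, 47 without the third dsxF+/+ XX library, 61 without the first, and 53 without the third dsxF+/+ XY library.

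Some of the genes that fell had ratios near −1. Of the 5 genes nearest to −1 among those that fell in MvF, AGAP000942, for which the sources used here give no name, had 36.9, 36.2 and 32.5 CPM after TMM scaling in dsxF+/+ XY and 62.9, 46.1 and 59.2 CPM in dsxF-/- XX, against 76.5, 65.1 and 68.4 CPM in dsxF+/+ XX. Every XY library was below every XX library of both genotypes. The log2 fold change was −0.99 ± 0.18 (standard error) in MvF (edgeR adjusted p = 0.00193) and −0.67 ± 0.18 in MvI (edgeR adjusted p = 0.0412). In IvF it was −0.32 ± 0.18 (edgeR adjusted p = 0.274). The call in MvF held with any library left out, and that in MvI was lost without 6 of the 9 libraries (edgeR adjusted p up to 0.172), and with the replicate number or the sample-sheet runs as a block (edgeR adjusted p = 0.0598 and 0.0563). AGAP000889, also unnamed, had 3.42, 4.58 and 5.61 CPM in dsxF+/+ XY and 5.96, 7.49 and 4.67 in dsxF-/- XX, against 10.8, 10.01 and 6.49 in dsxF+/+ XX. It was lower in each XY than in each dsxF+/+ XX library, by −1.002 ± 0.30 on the log2 scale (edgeR adjusted p = 0.029), whereas dsxF-/- XX overlapped both. Its call was lost without the first or second dsxF+/+ XY or the first dsxF+/+ XX library (edgeR adjusted p = 0.089, 0.0686 and 0.0866).

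Differences far larger than a log2 ratio of −1 also set XY apart from both XX genotypes. AGAP000376 had 9.73, 1.91 and 9.06 CPM in dsxF+/+ XY and 256, 155 and 387 in dsxF-/- XX, against 380, 341 and 184 in dsxF+/+ XX. The XX genotypes overlapped and XY lay far below both. It fell by 5.26 on the log2 scale in MvI (standard error 0.63, edgeR adjusted p = 7.43e-04) and by 5.44 in MvF (standard error 0.63, edgeR adjusted p = 1.28e-04). The value in IvF was −0.18 ± 0.52 (edgeR adjusted p = 0.862). AGAP000693 had 25.7, 7.87 and 18.1 CPM in dsxF+/+ XY and 455, 503.3 and 666 in dsxF-/- XX, against 742, 392 and 292 in dsxF+/+ XX. It fell by 4.97 in MvI and by 4.78 in MvF (edgeR adjusted p = 3.22e-04 and 7.54e-05), and the XX genotypes again overlapped. The next identifier, AGAP000694, fell by 2.79 and by 3.11 in the same comparisons (edgeR adjusted p = 7.98e-04 and 9.22e-05). AGAP000011 followed the same order, with 12.1 to 17.7 CPM in dsxF+/+ XY and 161 to 209 in dsxF-/- XX, against 211 to 355 in dsxF+/+ XX. None of these 4 genes is named in the sources used here, and their calls in MvF and MvI held with any library left out.

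**Figure D5:**
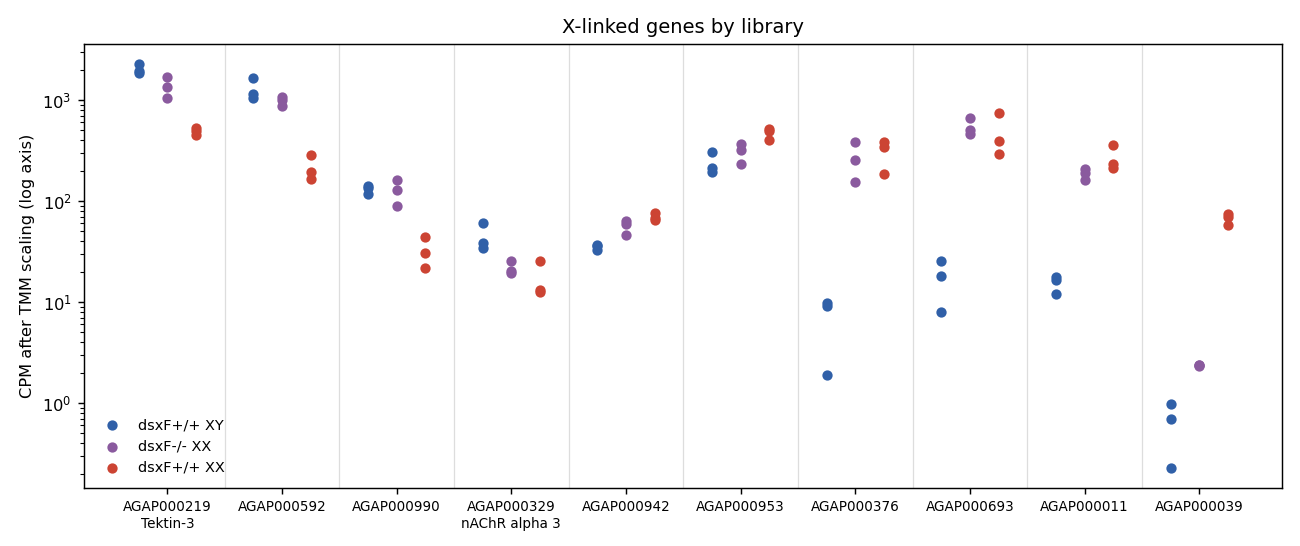
CPM after TMM scaling (vertical axis, logarithmic) of 10 X-linked genes in each of the 9 libraries, with a point per library and dsxF+/+ XY, dsxF-/- XX and dsxF+/+ XX from left to right within each gene. AGAP000376, AGAP000693 and AGAP000011 are low in the XY libraries alone, and AGAP000942 has 32.5 to 36.9 CPM in XY against 65.1 to 76.5 in dsxF+/+ XX.

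Some X-linked genes also differed between the dsx genotypes with a pair of X chromosomes. In IvF 13.9% of X-linked genes and 14.4% of all genes tested were called. AGAP000039 had 0.967, 0.229 and 0.701 CPM in dsxF+/+ XY and 2.36, 2.37 and 2.31 in dsxF-/- XX, against 57.4, 74.6 and 69.7 in dsxF+/+ XX. It was high in dsxF+/+ XX alone, and fell by 4.84 in IvF (standard error 0.32, edgeR adjusted p = 3.08e-05) and by 6.68 in MvF (standard error 0.36, edgeR adjusted p = 3.29e-06), the largest fall of an X-linked gene by the rule for naming genes. AGAP000051 showed the opposite, with 195, 158 and 241 CPM in dsxF+/+ XY and 71.5, 82.5 and 72.1 in dsxF-/- XX, against 3.41, 5.27 and 1.98 in dsxF+/+ XX. It rose by 5.79 in MvF and by 4.40 in IvF (standard errors 0.37 and 0.35, edgeR adjusted p = 6.69e-06 and 1.14e-04). AGAP000041 instead set XY apart from both XX genotypes, which overlapped. It had 244, 202 and 218 CPM in dsxF+/+ XY and 28.6, 16.2 and 21.8 in dsxF-/- XX, against 12.5, 12.9 and 17.1 in dsxF+/+ XX. Its log2 fold change was 3.97 in MvF and 3.32 in MvI (edgeR adjusted p = 8.22e-06 and 6.96e-05), and 0.64 in IvF (edgeR adjusted p = 0.104).

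X-linked genes of cilia and of movement along microtubules, as chosen by the study, had higher levels in XY and in dsxF-/- XX than in dsxF+/+ XX. Motile cilia carry dyneins along an axoneme of microtubules, and the auditory neurons of the Johnston's organ end in cilia. The genes were drawn from functional terms of subsets of genes that the study had called higher in XY than in dsxF+/+ XX. The subsets were divided by calls in IvF and MvI in these same samples. The directions and counts below were thus largely fixed by that choice and are not independent evidence. Of the 10 X-linked genes so chosen, 9 rose in MvF and none fell, with a median log2 fold change of 1.00. Of all genes tested, 13.1% rose in MvF, and the median of all was 0.03. In IvF 9 rose and none fell, with a median of 1.00, where 5.05% of all genes rose and their median was 0.00449, and in MvI none was called by edgeR (1 higher at an unadjusted p under 0.05), DESeq2 or limma-voom, with a median of −0.01. No gene of this list or of those below fell in any comparison with edgeR, DESeq2 or limma-voom, and none was lower at an unadjusted p under 0.05. Left-out libraries brought the count in MvF to as low as 6 (without the third dsxF+/+ XX library) and in IvF to 3 (without the third dsxF-/- XX library). Tektin-3 (AGAP000219), a filament protein of axonemal microtubules, had 2262, 1924 and 1866 CPM in dsxF+/+ XY and 1354, 1035 and 1706 in dsxF-/- XX, against 534, 497 and 449 in dsxF+/+ XX. The groups did not overlap, and it rose by 2.03 ± 0.23 in MvF (edgeR adjusted p = 1.20e-04) and by 1.47 ± 0.23 in IvF (edgeR adjusted p = 0.00324).

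AGAP000990, annotated to the assembly of axonemal dyneins, had 136, 141 and 116 CPM in dsxF+/+ XY and 129, 88.7 and 163 in dsxF-/- XX, against 21.7, 44.4 and 30.5 in dsxF+/+ XX. Its levels overlapped in XY and dsxF-/- XX, and it rose by 2.02 ± 0.30 in MvF (edgeR adjusted p = 6.09e-04) and by 1.98 ± 0.30 in IvF (edgeR adjusted p = 0.00305). AGAP001018, with the same annotation, rose by 1.07 and 1.18 (edgeR adjusted p = 0.0122 and 0.0178), calls lost without the third dsxF+/+ XX library (edgeR adjusted p = 0.0536 and 0.0762) and, in IvF, without the third dsxF-/- XX library (edgeR adjusted p = 0.0764). AGAP000246, annotated to cilium assembly, rose by 0.97 in MvF and by 1.18 in IvF (edgeR adjusted p = 0.00153 and 0.0021). AGAP000136, annotated to transport within cilia, was the gene not called, at 0.59 in MvF and 0.66 in IvF (edgeR adjusted p = 0.0658 and 0.0759). It reached the threshold in both with DESeq2 (DESeq2 adjusted p = 0.0454 and 0.0427) and with the replicate number as a block (edgeR adjusted p = 0.0351 and 0.0475). In MvF it also did so with the sample-sheet runs as a block (edgeR adjusted p = 0.0397) and without the second dsxF+/+ XX library (edgeR adjusted p = 0.0449). Dynein intermediate chain (AGAP000320), a subunit of dynein motors, rose by 0.52 in MvF, a call at the threshold (edgeR adjusted p = 0.0499) that was lost without 8 of the 9 libraries and with the block (edgeR adjusted p = 0.0575), and by 0.82 in IvF (edgeR adjusted p = 0.0157), lost without 3 of the 9 libraries (edgeR adjusted p up to 0.0741).

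A kinesin, a motor that carries cargo along microtubules, was among these genes. Kinesin family member 5 (AGAP000561) had 398 to 410 CPM in dsxF+/+ XY and 302 to 396 in dsxF-/- XX, against 172 to 215 in dsxF+/+ XX, and rose by 1.09 in MvF and by 0.82 in IvF (edgeR adjusted p = 0.00159 and 0.0184). The call in IvF was lost without 4 of the 9 libraries (edgeR adjusted p up to 0.0851). The study compiled a list titled tubulins for male pedicels and testes, in part on these samples, so its directions are not independent evidence. The list shares this gene and also holds AGAP000159, which the study names a kinesin. Of the 8 X-linked genes of the list, 3 rose in MvF, 2 in IvF and none in MvI (none at an unadjusted p under 0.05 there). The medians were 0.61, 0.55 and 0.06, where 13.1%, 5.05% and 1.57% of all genes tested rose. The 3 that rose in MvF were both kinesins and AGAP000592. The call of AGAP000159 was lost without 5 of the 9 libraries (edgeR adjusted p up to 0.13), and it was not called in IvF. The largest change was that of AGAP000592, annotated to the cell cycle, at 1146, 1654 and 1046 CPM in dsxF+/+ XY and 1002, 870 and 1080 in dsxF-/- XX, against 164, 287 and 193 in dsxF+/+ XX. It was high in dsxF+/+ XY and dsxF-/- XX alike, by 2.58 ± 0.28 in MvF and 2.20 ± 0.28 in IvF (edgeR adjusted p = 9.07e-05 and 0.00122). The count in MvF was 6 without the second dsxF+/+ XX library and 2 without the second dsxF+/+ XY library, and that in IvF was 4 without the second dsxF+/+ XX library and 1 without the first dsxF-/- XX library.

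Genes of neuronal signalling rose in XY against dsxF+/+ XX. The regulator of G-protein signalling (AGAP000232) shortens signals from coupled receptors, Shaker-related channels (AGAP000254) let potassium out of excited cells, and the nicotinic acetylcholine receptor subunit alpha 3 (AGAP000329) belongs to a channel opened by acetylcholine. These genes, and the cuticular proteins and myosin below, were taken from those that the study reported as higher in XY than in dsxF+/+ XX. Their rise in MvF was thus largely fixed by that choice and is not independent evidence. The study also sorted its genes by calls in IvF and MvI in these same samples. It placed both cuticular genes among those higher in IvF and not different in MvI. The Shaker-related gene and the myosin were placed among those called in neither. The results of these genes in IvF and MvI are thus not independent evidence either. All 3 genes rose in MvF, with a median of 1.53, where 13.1% of all genes tested rose. In IvF (median 0.58) and MvI (median 1.02) edgeR called 0 of them, where 1 and 3 were higher at an unadjusted p under 0.05 and DESeq2 called 1 in each. The acetylcholine receptor subunit had 37.96, 61.0 and 33.9 CPM in dsxF+/+ XY and 25.4, 20.5 and 19.4 in dsxF-/- XX, against 13.1, 25.4 and 12.5 in dsxF+/+ XX. The XY libraries lay above both other groups, which overlapped, and it rose by 1.38 ± 0.32 in MvF (edgeR adjusted p = 0.00821). The value in MvI was 1.02 ± 0.32 (edgeR adjusted p = 0.0798). The call of the Shaker-related gene (1.81 ± 0.48, edgeR adjusted p = 0.0153) was lost without the second dsxF+/+ XY or the third dsxF+/+ XX library (edgeR adjusted p = 0.0507 and 0.0569). Both cuticular proteins of that selection, structural parts of the exoskeleton, also rose in MvF. AGAP000988 had 7.93, 10.54 and 10.3 CPM in dsxF+/+ XY and 5.54, 8.03 and 6.86 in dsxF-/- XX, against 3.41, 1.54 and 1.62 in dsxF+/+ XX, with a log2 fold change of 2.12 ± 0.35 in MvF (edgeR adjusted p = 0.00107). AGAP000986 had 390 to 396 CPM in dsxF+/+ XY and 307 to 484 in dsxF-/- XX, against 208 to 253 in dsxF+/+ XX. Its log2 fold change in MvF was 0.78 (edgeR adjusted p = 0.0173), a call lost without the third dsxF+/+ XY or the third dsxF+/+ XX library (edgeR adjusted p = 0.0583 and 0.0747). In IvF both rose, AGAP000988 by 1.63 and AGAP000986 by 0.73 (edgeR adjusted p = 0.0126 and 0.0435), and neither call held without the third dsxF+/+ XX library (edgeR adjusted p = 0.052 and 0.159). The call of AGAP000986 was lost without 6 of the 9 libraries in all (edgeR adjusted p up to 0.198) and with either block (edgeR adjusted p = 0.0658 and 0.0546). Myosin VI (AGAP000776), an actin motor, was higher by 1.11 in MvF (edgeR adjusted p = 0.019), a call lost without the second dsxF+/+ XY, the first dsxF+/+ XX or the third dsxF+/+ XX library (edgeR adjusted p = 0.0609, 0.0566 and 0.0758).

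The most abundant X-linked genes differed in direction. AGAP000523, the gene with the highest mean level, had 2339, 1736 and 1940 CPM in dsxF+/+ XY and 1778, 2472 and 2208 in dsxF-/- XX, against 1821, 2028 and 2472 in dsxF+/+ XX. All 3 groups overlapped, with a log2 fold change of −0.07 ± 0.22 in MvF (edgeR adjusted p = 0.825). AGAP001023 had 665, 365 and 731 CPM in dsxF+/+ XY and 996, 1131 and 1180 in dsxF-/- XX, against 3376, 2356 and 2022 in dsxF+/+ XX, and fell by 2.14 ± 0.30 in MvF (edgeR adjusted p = 4.57e-04). AGAP000236, annotated to cell communication, had 1552, 1789 and 1437 CPM in dsxF+/+ XY and 878, 612 and 1005 in dsxF-/- XX, against 248, 508 and 370 in dsxF+/+ XX. Its groups did not overlap, and it rose by 2.09 ± 0.30 in MvF (edgeR adjusted p = 4.67e-04) and by 1.15 ± 0.29 in IvF (edgeR adjusted p = 0.0267). The calls of AGAP001023 and AGAP000236 in IvF were each lost without 4 of the 9 libraries. The X-linked share of all counts averaged 6.55% (SD 0.311, 3 libraries) in dsxF+/+ XY and 7.44% (SD 0.764) in dsxF-/- XX, against 6.80% (SD 0.955) in dsxF+/+ XX. The highest XY library (6.855%) was just below the lowest dsxF-/- XX library (6.862%), and dsxF+/+ XX overlapped both. Without the 10 most abundant transcripts of each library, XY and dsxF-/- XX overlapped as well. The first XY library then had 7.99% and the second dsxF-/- XX library 7.64%.

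A group of X-linked genes was abundant in a single library. The 7 genes that failed the filter for low counts had their transcripts in the first dsxF+/+ XX library almost alone, an observation made after the values were seen. AGAP000612 had 3290 CPM there (56558 counts) and at most 0.163 CPM in any other library. AGAP000610 had 2608 CPM and at most 0.519. The others were AGAP000607 (730 CPM), AGAP000548 (441 CPM), AGAP000609 (193 CPM), AGAP000611 (164 CPM) and AGAP000151 (31.6 CPM), and 5 of the 7 lie within a stretch of neighbouring identifiers. In all they made up 7458 CPM of this library and at most 1.09 CPM of any other. Across all genes, 26 had at least 10 CPM in this library and under 1 CPM in each other library, of which 7 were X-linked and 16 autosomal, whereas 5 genes had such levels in the third dsxF+/+ XX library and at most 1 in any other. Without the 7 genes the X-linked share of this library was 7.03%, not 7.77%, and the dsxF+/+ XX mean was 6.55% ± 0.611 (SD, n = 3). With only the genes tested in the fit kept, 772 X-linked and 7659 autosomal, the difference of the medians in MvF was −0.15. Without the first dsxF+/+ XX library it was −0.17.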

How the data were processed

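RNA-seq of pedicel pools gave 9 libraries in 3 groups (SMART-Seq v4). The authors quantified reads with kallisto (version not given in the sources used here) against AgamP4 transcripts, and the deposited values are estimated counts per transcript, not scaled for depth or length. They were summed by gene and rounded. Genes were tested with edgeR 4.0.16 under R 4.3.3 (TMM, filterByExpr, quasi-likelihood test, Benjamini-Hochberg over all genes tested, 1 fit of the 3 groups); the study used DESeq2. Medians used plain CPM with a pseudocount of 0.5. Reads shared by similar genes were divided by estimation, and an error there touches any gene with a close copy. P-values measure the spread between libraries (biological coefficient of variation 29.8%).

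Alternatives were DESeq2 1.42.0, limma-voom (limma 3.58.1), other scalings, filters, blocks, minimums and each library left out. The libraries of dsxF+/+ XY and dsxF+/+ XX with neighbouring sample-sheet numbers deviated together (r = 0.282, 0.543 and 0.301). The runs of these numbers were therefore used as a block for MvF, in a fit of all 9 libraries. The dsxF-/- XX libraries of the same runs gave r = −0.378, −0.239 and 0.143 with dsxF+/+ XX. With dsxF+/+ XY they gave −0.256, −0.133 and 0.285. The first dsxF-/- XX and second dsxF+/+ XX libraries, from different runs, had 0.465. Whether the runs are a batch was not tested. Values without the untested genes were added after seeing the data. The edgeR steps were tested on simulated data. The members and lists were chosen with earlier results of these data known. Genes named are those the paper names, the largest changes called per comparison (mean of at least 5 CPM, groups that do not overlap), the 5 most abundant and those nearest to −1 in MvF, of which a selection is given. X linkage rests on identifier order alone, since the reference table matched 0 of the identifiers, and for the same reason keyword lists and tissue markers found by product name were not analysed here.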

Additional observations from a re-analysis of the deposited data

How the results depend on the processing

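The difference between the X-linked and autosomal medians stayed below 0 in MvF and MvI under every alternative run, from −0.17 to −0.09 and from −0.19 to −0.09, and moved by less than the SD between libraries, as did the values per library. With each library left out it ranged from −0.17 to −0.11 in MvF, from −0.19 to −0.09 in MvI and from −0.05 to 0.09 in IvF, where its sign was not stable; IvF also gave −0.02 with means in place of medians. Counts of X-linked genes called were within 1.5 times the counts given in 92 of 126 settings. At an adjusted p under 0.01 they were 37 higher and 106 lower in MvF, 12 and 22 in IvF, and 2 and 30 in MvI. DESeq2 called 21 higher and 95 lower in MvI. With only the groups compared, 29 rose in IvF and 19 in MvI. With the label's replicate number as a block, 5 rose in MvI, and no other count moved by over 1.5 times. Libraries of dsxF+/+ XY and dsxF+/+ XX with the same replicate number had r = 0.214, 0.543 and 0.027. The pair with 0.543 is also a pair of the sample-sheet runs. The block of sample-sheet runs gave 103 higher and 180 lower in MvF, sharing 88 and 164 genes with the fit without it, and in that comparison changed the named calls of AGAP000136 and AGAP000320 alone. With each library left out, 47 to 167 genes rose and 127 to 204 fell in MvF, 14 to 85 rose and 28 to 73 fell in IvF, and 2 to 18 rose and 37 to 73 fell in MvI. Of the named genes' calls, 29 of 41 in MvF, 11 of 26 in IvF and 9 of 15 in MvI held with every library left out, and none changed direction. The cause of these changes was not tested. Chromosomes from a reference table could not be used in place of identifier order.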
